A study of Mus musculus with 28 samples.

Results

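Ribosome biogenesis genes, 44 nucleolar, rRNA processing and RNA polymerase I genes taken by symbol from a count table of 24421 symbols, were followed across sorted mouse thymocytes. All 44 were found in the table and all 44 were among the 14371 genes that passed the filter on low counts. RNA sequencing covered 28 libraries in 6 groups, 3 genotypes at each of the stages DN4 and DN2/3, the later and earlier subsets of thymocytes without surface CD4 or CD8. The genotypes were Ldb1-KO (labelled Lmo2tg; Ldb1-KO, 5 libraries a stage), which carries both the Lmo2 transgene and the Ldb1 deletion, Lmo2tg (5 libraries a stage), which carries the transgene with Ldb1 intact, and wild type C57BL/6 (4 libraries a stage). Lmo2, a T-cell oncogene, and its cofactor Ldb1 act in one DNA-bound complex. The sources used here do not state the promoter of the transgene, the age of the mice or which of the listed Cre lines (Lck-Cre, Rag1-Cre, IL-7Ra-Cre) deleted Ldb1 in a sample. CD4 T cells is the cell type on every label, although DN subsets lack surface CD4.

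Ribosomes are built in the nucleolus. RNA polymerase I transcribes the ribosomal RNA precursor, small nucleolar ribonucleoproteins (snoRNPs) of the box C/D and box H/ACA classes guide its methylation and pseudouridylation, and assembly factors then process it into the small and the large subunit. In thymocytes, demand for new ribosomes is high around the burst of division that follows pre-TCR signalling, and Myc, which binds the E-box sequence CACGTG, is a known activator of many of these genes. The 44 genes were grouped by these roles: 6 of RNA polymerase I and its factors, 4 of the box C/D snoRNP, 4 of the box H/ACA snoRNP, 14 of the small subunit, 13 of the large subunit and 3 abundant nucleolar proteins.

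Promoters were read from RefSeq (GRCm38.p6, 250 bases before to 50 after each start) for the 37 members that matched by symbol. The E-box CACGTG, which reads the same on both strands and was the only motif searched, stood in a promoter of 7 of these 37 members (18.9%), 16 of 87 other ribosome biogenesis genes (18.4%) and 1216 of all 10723 tested genes with a promoter (11.3%). The 3 members whose E-box lies before the start are shown to place it, with the E-box in capitals, each on the strand of its gene and written 5′ to 3′; coordinates are those of the stretch shown. Utp18, a small subunit processome gene, has it 20 bases before the start (chr11:93885767-93885846, minus strand), Imp4, another small subunit processome gene, 121 bases before (chr1:34439648-34439767, plus strand), and Nop2, an rRNA methyltransferase gene of the large subunit, 60 bases before (chr6:125131763-125131882, plus strand).
Utp18: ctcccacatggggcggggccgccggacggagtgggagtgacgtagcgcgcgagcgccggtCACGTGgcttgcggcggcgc
Imp4: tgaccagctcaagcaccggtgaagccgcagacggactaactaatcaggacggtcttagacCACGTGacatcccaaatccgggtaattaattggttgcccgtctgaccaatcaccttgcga
Nop2: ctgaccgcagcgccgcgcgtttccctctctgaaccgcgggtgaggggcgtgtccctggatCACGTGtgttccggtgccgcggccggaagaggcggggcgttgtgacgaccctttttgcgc
In the other 4 members (Utp20, Wdr43, Ltv1 and Pes1) the E-box lies after the start. A match says only that these letters are in the window, and binding was not measured.

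Total counts ran from 28.1 to 106.9 M per library, and each member had between 1084 and 208018 counts in every library. Levels below are CPM, counts per M counts with TMM-scaled library sizes. Lmo2 transcript was 30.5 ± 7.43 to 45.4 ± 6.66 CPM (mean ± SD, n = 5) in the transgenic groups and under 1 CPM in each wild type library. Ldb1 averaged 25.7 ± 19.3 CPM in Ldb1-KO DN4 and 98.1 ± 26.9 CPM in Ldb1-KO DN2/3, against 345 ± 72.2 CPM in Lmo2tg DN4 and 397 ± 58.0 CPM in Lmo2tg DN2/3, so transcript was reduced but still counted in Ldb1-KO. Wild type and transgenic library names come from separate numbering schemes, and in any comparison with wild type the library series and the genotype cannot be told apart. The labels do not say whether replicates were separate animals, so p-values measure the spread between these libraries. In bulk RNA, fewer cells of a type and less RNA per cell cannot be told apart.

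Wild type DN4 thymocytes had the highest levels. The mean of wild type DN4 was the highest of the 6 groups for 42 of 44 members, and that of Lmo2tg DN4 for the other 2 members, Ddx18 and Ddx10. Summed over the 44 genes, the level was 9075, 10455, 10786, 10553 and 9690 CPM in Ldb1-KO DN4, 6532, 12711, 8678, 12621 and 7706 CPM in Lmo2tg DN4, and 14345, 13760, 15487 and 13923 CPM in wild type DN4. At DN2/3 it was 7548, 9650, 9472, 9098 and 8449 CPM in Ldb1-KO libraries, 8217, 12743, 8494, 10456 and 7475 CPM in Lmo2tg libraries, and 9053, 8600, 8976 and 8677 CPM in wild type libraries. Each wild type DN4 library stood above every other library, and the transgenic groups overlapped each other at both stages. Ncl and Npm1 made up between 27.0% and 42.0% of the sum; without them the wild type DN4 libraries still ran from 8410 to 9831 CPM, and the highest of the rest, Lmo2tg DN4 replicate 4, had 8322 CPM. The members took between 0.686% and 1.44% of all counts in a library.

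**Figure D1:**
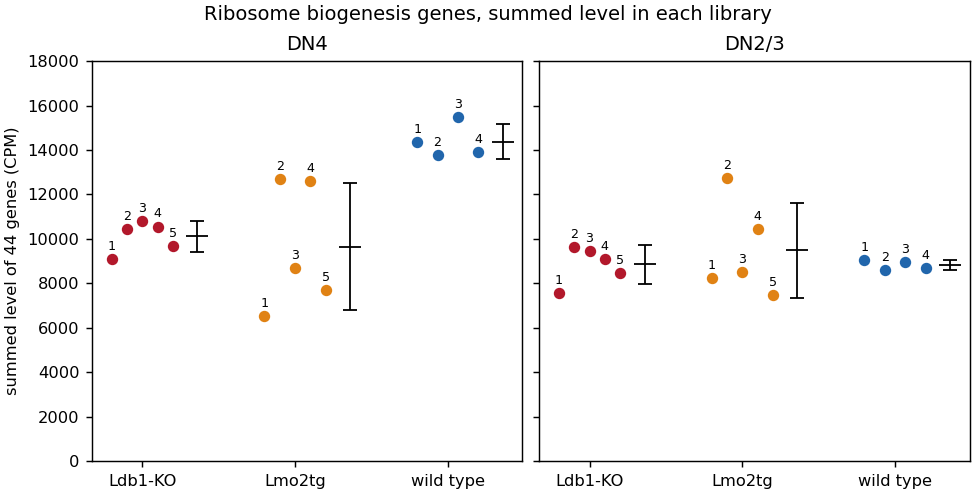
Summed level of the 44 genes (CPM, TMM-scaled library sizes) in each library, numbered by replicate, with the mean ± SD of each group beside its points, DN4 on the left and DN2/3 on the right. Wild type DN4 libraries sit between 13760 and 15487 CPM, above every other library, and Lmo2tg replicates 2 and 4 stand above the other Lmo2tg libraries at both stages.

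Per length of exon (CPM per kb, all annotated exons of a gene merged), the histone chaperone gene Npm1 was the highest in every group. Npm1 was at 722 ± 88.6 in Ldb1-KO DN4, 660 ± 239 in Lmo2tg DN4 and 947 ± 26.9 in wild type DN4. Ncl came next in every group, with 282 ± 24.5 CPM per kb in wild type DN4. The lowest 3 were the same genes in each group: Polr1a, Imp4 and Wdr12, the last at 9.30 ± 0.612 CPM per kb in wild type DN4. The order depends on annotation, since long rare exons lower a gene on this scale. Merged exons came to 8553 bases in Imp4, 10188 bases in Ncl and 2665 bases in Npm1. Levels of different genes cannot be set strictly side by side on it.

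**Figure D2:**
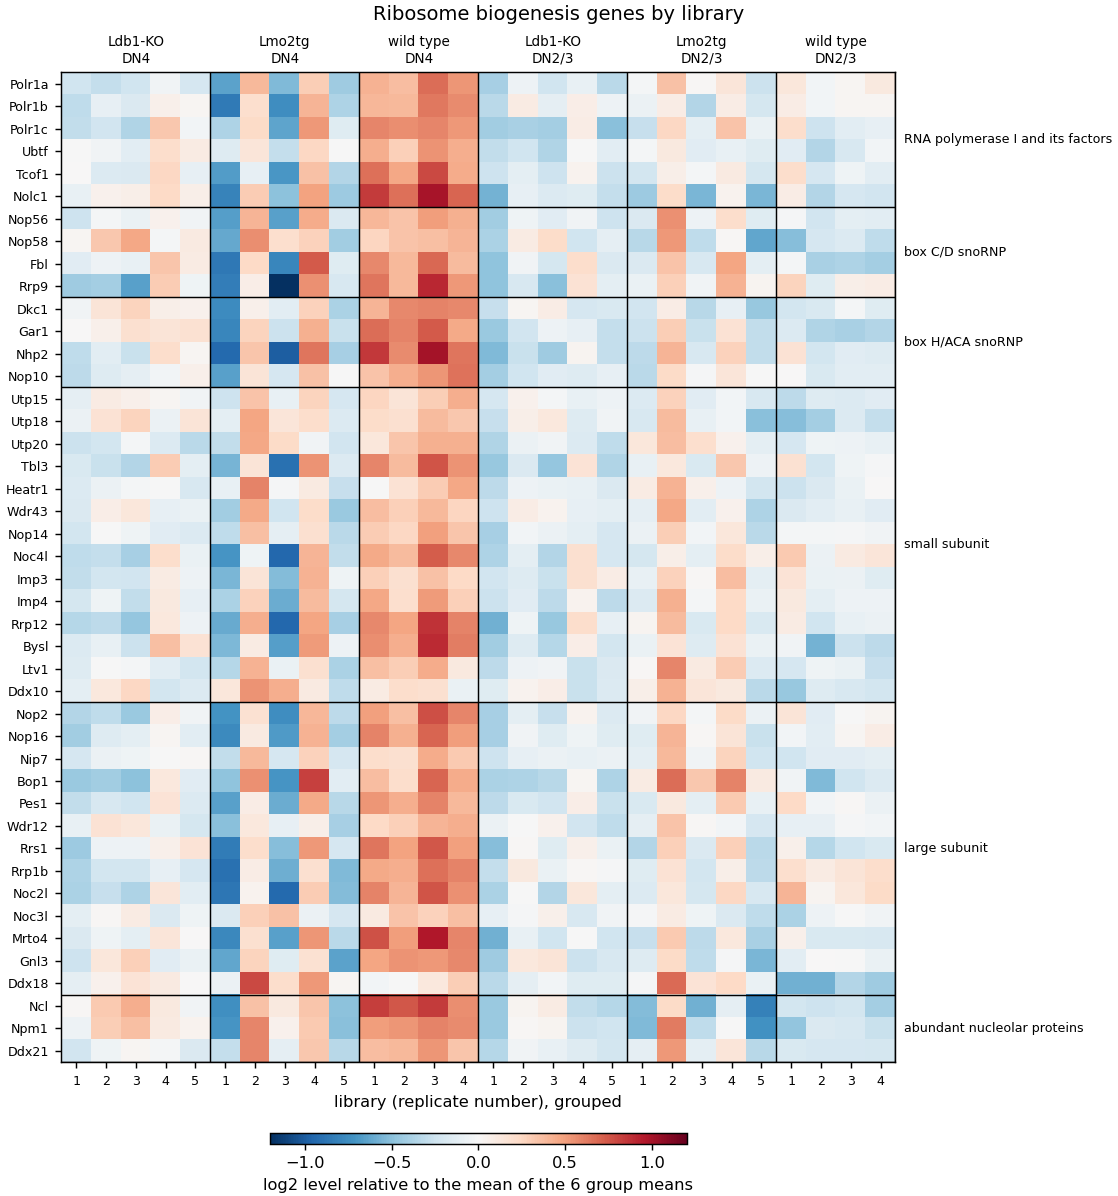
Log2 level of each of the 44 genes (rows, by role) in each of the 28 libraries (columns, by group and replicate number), relative to the mean of the 6 group means of that gene. The wild type DN4 columns are red in nearly all rows, Lmo2tg DN4 replicates 1, 3 and 5 are mostly blue, and the Ldb1-KO columns are pale at both stages.

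DN4 against DN2/3 in wild type shows the change over normal maturation. All 44 genes were higher in DN4 and 38 of 44 passed the test, 0 fell (adjusted p under 0.05 over all genes, edgeR quasi-likelihood test, used throughout), where 21.1% of all genes tested rose and 24.8% fell. The median log2 fold was 0.57, against -0.06 over all genes tested. For 43 of 44 members every DN4 library lay above every DN2/3 library, which was so for 24.9% of all genes. By role, all 6 RNA polymerase I genes, all 4 box H/ACA genes, all 3 abundant nucleolar protein genes, 3 of 4 box C/D genes, 11 of 14 small subunit genes and 11 of 13 large subunit genes rose. The 6 that did not pass were Imp3, Ddx10, Rrp1b, Noc2l, Noc4l and Rrp9. Summed markers of other cells also differed between the wild type stages. Double-positive markers summed to 227 to 367 CPM at DN4 and 9.32 to 15.2 CPM at DN2/3, and NK and innate lymphoid markers to 367 to 515 CPM at DN4 and 207 to 254 CPM at DN2/3. Lower at DN4 were mature T cell markers, with 337 to 576 CPM at DN4 and 958 to 1331 CPM at DN2/3, B cell markers, with 24.8 to 45.7 CPM at DN4 and 72.1 to 83.7 CPM at DN2/3, myeloid markers, with 0.824 to 1.02 CPM at DN4 and 18.1 to 25.1 CPM at DN2/3, and thymic stroma markers, with 11.6 to 16.0 CPM at DN4 and 52.6 to 66.6 CPM at DN2/3. Their part in the stage change was not tested.

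Ncl, which encodes nucleolin (mm10 chr1:86344719-86359400, minus strand, GENCODE M21), changed most. It had 3047, 2868, 3050 and 2518 CPM in wild type DN4 libraries, against 1467, 1435, 1469 and 1285 CPM in wild type DN2/3 libraries (log2 fold 1.02, SE 0.21, adjusted p = 0.000407). Gar1, a protein gene of the box H/ACA snoRNP (chr3:129824912-129831396, minus strand), had 116, 110, 121 and 99.9 CPM at DN4 and 64.9, 56.6, 55.5 and 57.2 CPM at DN2/3, a log2 fold of 0.93 (SE 0.17, adjusted p = 0.000147). In both genes the stages were well apart, with no DN4 library near a DN2/3 one. Ubtf, the factor that binds ribosomal DNA and recruits RNA polymerase I (chr11:102304560-102319742, minus strand), had 474, 427, 507 and 473 CPM at DN4, against 319, 274, 306 and 341 CPM at DN2/3, a log2 fold of 0.60 (SE 0.11, adjusted p = 9.89e-05). Imp3, a small subunit processome gene, had the smallest difference, 89.0, 83.3, 93.4 and 86.4 CPM at DN4 beside 82.2, 69.1, 69.7 and 65.9 CPM at DN2/3, a log2 fold of 0.30 (SE 0.16, adjusted p = 0.143). Its groups did not overlap, though its highest DN2/3 library lay close to the lowest DN4 one.

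The labels state no pairs. DN4 and DN2/3 libraries of a genotype with the same replicate number were taken as pairs because they deviated together. In wild type their correlation over all genes was 0.153 to 0.332. This block was chosen after seeing the data. With each pair as a block all 44 genes rose in wild type (28.6% of all genes tested rose in that fit). Pair by pair, the 44 genes were all higher at DN4 in each of the 4 wild type pairs, with medians of 0.48 to 0.62 (log2).

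In the transgenic thymocytes 0 of 44 members passed between stages in the main fit, which has no block. Some passed with the pairs as a block. In Ldb1-KO, DN4 against DN2/3 gave 0 of 44 members called (28.1% of all genes tested were called in either direction). There, 2 members had an unadjusted p under 0.05, DESeq2 called 0, and the median log2 fold was 0.07. A fit of those 2 groups alone called 6, and the share of all genes called in it is not given here. In Lmo2tg the same contrast gave 0 of 44 (15.4% of all genes), with 0 at an unadjusted p under 0.05 and 0 by DESeq2, and a median of -0.07. With the pairs as a block, 8 members rose in Ldb1-KO: Nop58, Ncl, Ddx18, Npm1, Utp18, Ubtf, Nolc1 and Gar1, by 0.14 to 0.36 (log2), and 0 fell (22.5% and 25.7% of all genes rose and fell). In Lmo2tg the block left 2 that rose, Ncl and Utp18, and 10 that fell, by 0.17 to 0.45 (18.6% and 20.1% of all genes rose and fell).

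Ncl was also the member with the largest fold in both transgenic genotypes. It had 1727, 2119, 2309, 1854 and 1665 CPM in Ldb1-KO DN4, against 1254, 1743, 1835, 1394 and 1347 CPM in Ldb1-KO DN2/3 (log2 fold 0.35, SE 0.19, adjusted p = 0.168; 0.00360 with the block). In Lmo2tg it had 1023, 2175, 1854, 2151 and 1214 CPM at DN4 and 1191, 2005, 1146, 1584 and 976 CPM at DN2/3, a log2 fold of 0.29 (SE 0.19, adjusted p = 0.326; 0.0266 with the block). The stages overlapped in both genotypes. At the other end stood Rrp9, which binds the box C/D snoRNA of the early cleavages, with 40.7, 76.5, 30.2, 106 and 63.2 CPM in Lmo2tg DN4 beside 68.7, 88.2, 70.2, 96.4 and 74.1 CPM in Lmo2tg DN2/3 (log2 fold -0.33, SE 0.23, adjusted p = 0.362; 0.0179 with the block). In Ldb1-KO the lowest was Rrp1b, a large subunit gene, at -0.17 (SE 0.14, adjusted p = 0.397).

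**Figure D3:**
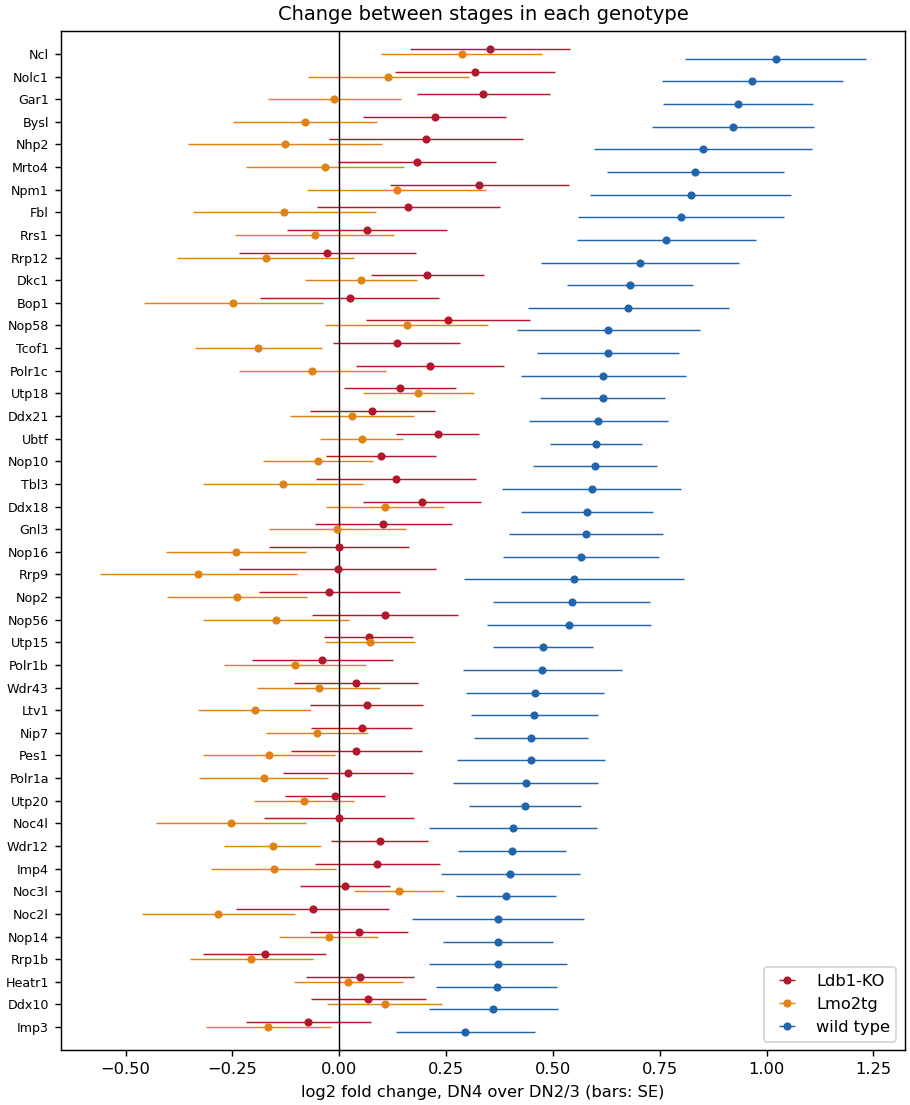
Log2 fold change of each of the 44 genes between stages (DN4 over DN2/3) in Ldb1-KO, Lmo2tg and wild type, with bars of 1 SE, ordered by the wild type value. Wild type points run from 0.30 to 1.02, and those of the transgenic genotypes lie around 0.

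The pairs differed in Lmo2tg. The median over the 44 genes, DN4 over DN2/3, was -0.45, -0.03, -0.26, 0.22 and -0.05 (log2) in Lmo2tg pairs 1 to 5, and 41 of 44 genes were higher at DN4 in pair 4 while 42 of 44 were lower in pair 1. Ldb1-KO pairs were more alike, with medians of 0.03 to 0.14. Without Lmo2tg DN4 replicate 4, the Lmo2tg contrast called 7 members, all lower, in place of 0. The share of all genes called in that refit is not given here.

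**Figure D4:**
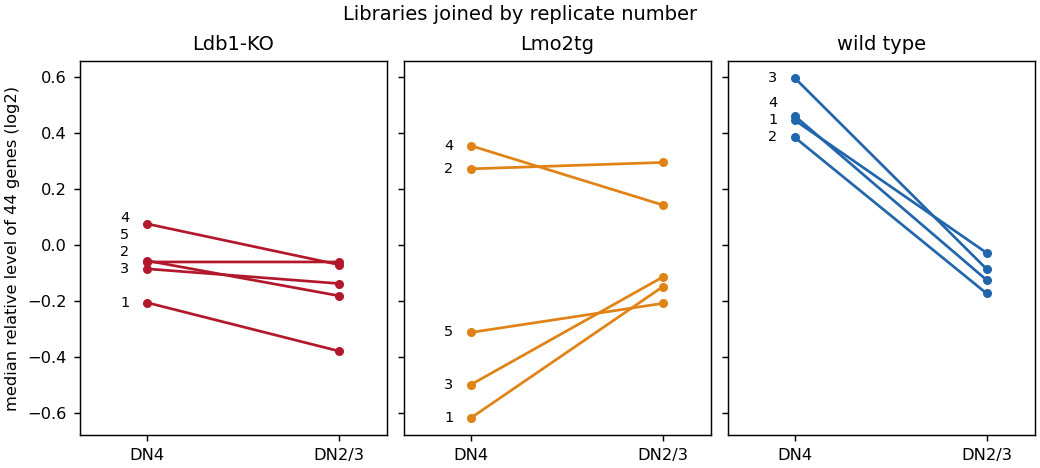
Median over the 44 genes of the log2 level relative to the mean of the 6 group means, at DN4 and DN2/3, with the libraries of a pair joined and numbered by replicate. All 4 wild type lines fall steeply towards DN2/3, Ldb1-KO lines are nearly flat, and Lmo2tg lines split, with replicates 2 and 4 high at both stages.

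Whether the stage change differed between genotypes was tested directly. The Lmo2tg effect at DN4 minus that at DN2/3, which is also the stage change in Lmo2tg minus that in wild type, was negative for all 44 members and passed for 22 (11% of all genes tested passed as lower), with a median of -0.64 against 0.08 over all genes. With the pairs as a block it passed for all 44 (23.7% of all genes). In a fit of the 4 groups compared alone it passed for 6, and the share of all genes there is not given here. In the main fit, without the block, the box H/ACA gene Gar1 was at -0.94 (SE 0.23, adjusted p = 0.00693). Bysl, a small subunit assembly gene, was lowest at -1.002 (SE 0.25, adjusted p = 0.00761), and Noc3l, a large subunit gene, nearest 0 at -0.25 (SE 0.16, adjusted p = 0.241). The count rested on single libraries. It was 9 without wild type DN2/3 replicate 2, wild type DN4 replicate 3 or Lmo2tg DN2/3 replicate 2. It was 11 or 12 without wild type DN2/3 replicate 3 or 4, Lmo2tg DN2/3 replicate 4 or Lmo2tg DN4 replicate 1, 3 or 5. It was 39 and 37 without Lmo2tg DN4 replicates 2 and 4. Shares of all genes in these refits are not given here.

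For Ldb1-KO the same test, the stage change in Ldb1-KO minus that in wild type, was negative for all 44 members with a median of -0.47. It passed for 0 of 44 (0.0348% of all genes passed as lower), 22 with an unadjusted p under 0.05, and for 38 of 44 with the pairs as a block (9.35% of all genes). In a fit of those 4 groups alone it passed for 30. The share of all genes in that fit is not given here, and the 0.0348% and 9.35% do not apply to it. The effect of deleting Ldb1 (Ldb1-KO over Lmo2tg) at DN4 minus that at DN2/3 passed for 0 of 44 (1.36% of all genes, either direction; 0 members at an unadjusted p under 0.05, 0 by DESeq2), with a median of 0.19, and with the block for Ltv1 and Gar1, both higher (6.25% of all genes).

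Lmo2tg against wild type at DN4 asks what the transgene changes in the later subset. Here 30 of 44 members fell and 0 rose (23.5% of all genes tested fell and 28.9% rose), and the median log2 fold was -0.56, against 0.07 over all genes. All 6 RNA polymerase I genes and all 4 box H/ACA genes fell, as did 3 of 4 box C/D genes, 9 of 13 large subunit genes, 7 of 14 small subunit genes and 1 of 3 abundant nucleolar protein genes. The groups did not overlap for 12 of 44 members, all lower in Lmo2tg (13.9% of all genes tested). The values of this comparison, of Ldb1-KO over wild type at DN4 and of the wild type stage change share the 4 wild type DN4 libraries and are not independent of one another.

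Among the RNA polymerase I genes, Tcof1, which encodes treacle, a cofactor of ribosomal RNA transcription, had the smallest p. It had 305, 454, 298, 620 and 381 CPM in Lmo2tg DN4, against 766, 668, 843 and 659 CPM in wild type DN4 (log2 fold -0.83, SE 0.16, adjusted p = 0.000127). The highest Lmo2tg library, replicate 4, came close to the lowest wild type one while the other Lmo2tg libraries were far below. Ubtf had 313, 388, 286, 414 and 348 CPM in Lmo2tg DN4 beside 474, 427, 507 and 473 CPM in wild type DN4 (log2 fold -0.43, SE 0.10, adjusted p = 0.00131). The scaffold gene Nolc1, with -0.90 (SE 0.20, adjusted p = 0.000609), had the lowest fold of the 44.

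Of the snoRNP genes, the pseudouridine synthase gene Dkc1 (chrX:75095854-75109777, plus strand) had 127, 223, 197, 260 and 164 CPM in Lmo2tg DN4 and 284, 319, 324 and 318 CPM in wild type DN4 (log2 fold -0.68, SE 0.14, adjusted p = 0.000314). No library of Dkc1 overlapped between the groups. Rrp9 had 40.7, 76.5, 30.2, 106 and 63.2 CPM in Lmo2tg DN4, against 113, 94.7, 135 and 104 CPM in wild type DN4 (log2 fold -0.82, SE 0.24, adjusted p = 0.00690), where replicate 4 lay inside the wild type range; in a fit of those 2 groups alone the call was lost (adjusted p = 0.0575). The methyltransferase gene of the box C/D snoRNP, Fbl, had 136, 289, 142, 409 and 221 CPM in Lmo2tg DN4 and 365, 320, 396 and 319 CPM in wild type DN4 (log2 fold -0.55, SE 0.23, adjusted p = 0.0445). Its replicate 4 stood above every wild type library and the other 4 below every one.

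Among assembly factors, Rrp1b (chr17:32036100-32062865, plus strand) had 59.2, 117, 73.1, 125 and 75.8 CPM in Lmo2tg DN4, against 151, 148, 173 and 166 CPM in wild type DN4 (log2 fold -0.82, SE 0.15, adjusted p = 0.000106), the smallest p of the members, with the groups apart. Noc4l, a small subunit gene, had 54.2, 85.5, 46.3, 118 and 72.3 CPM in Lmo2tg DN4 and 121, 116, 147 and 132 CPM in wild type DN4 (log2 fold -0.78, SE 0.19, adjusted p = 0.00126), with replicate 4 just inside the wild type range. Nop2, whose promoter is printed above, fell by 0.73 (SE 0.17, adjusted p = 0.00130) and Imp4 fell by 0.43 (SE 0.15, adjusted p = 0.0223), while Utp18 was at -0.15 (SE 0.14, adjusted p = 0.362). Ncl had 1023, 2175, 1854, 2151 and 1214 CPM in Lmo2tg DN4, against 3047, 2868, 3050 and 2518 CPM in wild type DN4 (log2 fold -0.77, SE 0.20, adjusted p = 0.00241).

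The 14 members not called were Npm1, Imp3, Ddx21, Ltv1, Bop1, Utp20, Nop58, Nip7, Utp15, Noc3l, Utp18, Heatr1, Ddx10 and Ddx18. Only the helicase genes Ddx18 and Ddx10 had a positive fold. Ddx18 had 148, 269, 179, 223 and 157 CPM in Lmo2tg DN4 beside 151, 155, 170 and 191 CPM in wild type DN4 (log2 fold 0.23, SE 0.15, adjusted p = 0.195). Ddx10 had 94.8, 125, 117, 93.1 and 69.7 CPM in Lmo2tg DN4 beside 92.4, 99.6, 98.2 and 81.5 CPM in wild type DN4 (log2 fold 0.10, SE 0.14, adjusted p = 0.561), and both overlapped.

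Lmo2tg libraries varied more than the others, and in a common way. Replicates 2 and 4 were the 2 highest Lmo2tg DN4 libraries for 41 of 44 members, the exceptions being Ddx10, Noc3l and Utp20, and the 2 highest Lmo2tg DN2/3 libraries for 37 of 44. The median coefficient of variation of a member was 32.2% in Lmo2tg DN4 and 17.7% in Lmo2tg DN2/3, against 10.9% and 11.2% in Ldb1-KO and 8.73% and 8.49% in wild type DN4 and DN2/3. The number of members below every wild type DN4 library was 43, 26, 40, 19 and 43 in Lmo2tg DN4 replicates 1 to 5, and 44, 41, 40, 42 and 43 in Ldb1-KO DN4 replicates 1 to 5. Proliferation genes moved with this split: their 16 genes summed to 3714, 8426, 5600, 9715 and 5836 CPM in Lmo2tg DN4 replicates 1 to 5, against 8736 to 9781 CPM in Ldb1-KO DN4 and 10143 to 11331 CPM in wild type DN4. Markers of mature T cells, 9 genes, summed to 1900, 1059, 2753, 776 and 1648 CPM in the same Lmo2tg DN4 libraries, highest where the members were low. The part of either in the result was not tested.

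Ldb1-KO against wild type at DN4 compares cells carrying both the transgene and the deletion with normal ones. All 44 members were lower, 35 passed and 0 rose (14.4% of all genes tested fell and 18.2% rose), with a median log2 fold of -0.53 against 0.03 over all genes. For 39 of 44 members every Ldb1-KO library lay below every wild type one (16.4% of all genes). All 6 RNA polymerase I genes, all 4 box H/ACA genes and 12 of 13 large subunit genes fell, with 9 of 14 small subunit, 2 of 4 box C/D and 2 of 3 abundant nucleolar protein genes. The 9 that did not pass were Fbl, Npm1, Wdr43, Heatr1, Utp15, Utp18, Nop58, Ddx10 and Ddx18.

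Rrp1b had 84.9, 94.1, 94.5, 103 and 95.5 CPM in Ldb1-KO DN4, against 151, 148, 173 and 166 CPM in wild type DN4 (log2 fold -0.76, SE 0.15, adjusted p = 0.000975). Nop10, a box H/ACA protein gene, had 91.9, 103, 106, 112 and 119 CPM in Ldb1-KO DN4, against 145, 155, 165 and 180 CPM in wild type DN4 (log2 fold -0.60, SE 0.14, adjusted p = 0.00257). Polr1c, a subunit shared by RNA polymerases I and III, had 42.9, 44.8, 41.0, 65.7 and 51.5 CPM in Ldb1-KO DN4, against 78.7, 77.3, 78.8 and 75.3 CPM in wild type DN4 (log2 fold -0.66, SE 0.18, adjusted p = 0.00927). These 3 genes did not overlap between the groups. Utp20, a small subunit processome gene that was not called in Lmo2tg, had 108, 111, 127, 115 and 103 CPM in Ldb1-KO DN4 and 142, 163, 173 and 174 CPM in wild type DN4 (log2 fold -0.53, SE 0.12, adjusted p = 0.00315). Nop58, a core box C/D protein gene, had 330, 406, 448, 320 and 349 CPM in Ldb1-KO DN4 beside 387, 413, 416 and 432 CPM in wild type DN4 (log2 fold -0.15, SE 0.20, adjusted p = 0.588), with overlap.

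Ldb1-KO against Lmo2tg at DN4 compares transgenic cells without and with an intact Ldb1. No member passed: 0 of 44 were called (14.6% of all genes tested were called, 5.85% higher and 8.71% lower), 2 had an unadjusted p under 0.05 and DESeq2 called 0. The median log2 fold was -0.00, and 22 members were above 0 and 22 below. Values ran from -0.38 in Bop1 (SE 0.21, adjusted p = 0.246) to 0.24 in Dkc1 (SE 0.13, adjusted p = 0.241). Dkc1 had 207, 238, 258, 225 and 222 CPM in Ldb1-KO DN4, against 127, 223, 197, 260 and 164 CPM in Lmo2tg DN4. Tcof1 had 487, 433, 431, 578 and 454 CPM in Ldb1-KO DN4 beside 305, 454, 298, 620 and 381 CPM in Lmo2tg DN4 (log2 fold 0.21, SE 0.15, adjusted p = 0.390). In both genes the Ldb1-KO libraries lay inside the wide Lmo2tg range. Without Lmo2tg DN4 replicate 4 both passed as higher in Ldb1-KO (adjusted p = 0.0369 and 0.0234).

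Members with the smallest p of the other roles in that comparison did not pass either. The rRNA helicase gene Ddx21 had 343, 390, 408, 395 and 356 CPM in Ldb1-KO DN4 and 330, 605, 373, 504 and 320 CPM in Lmo2tg DN4 (log2 fold -0.17, SE 0.15, adjusted p = 0.498). Ddx18 had 144, 161, 174, 167 and 156 CPM in Ldb1-KO DN4 beside 148, 269, 179, 223 and 157 CPM in Lmo2tg DN4 (log2 fold -0.28, SE 0.14, adjusted p = 0.184). Utp20 was at -0.25 (SE 0.12, adjusted p = 0.173) and Nop58 at 0.12 (SE 0.19, adjusted p = 0.754), a value whose sign turned without Lmo2tg DN4 replicate 1 (-0.0091). A p that misses the threshold does not show equal levels.

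At DN2/3, at most 2 members passed between any 2 genotypes in the main fit, which has no block. Lmo2tg against wild type gave 2 members higher and 0 lower (15.1% of all genes tested rose and 14.4% fell), with a median log2 fold of 0.12 against 0.01 over all genes. Ddx18, in yeast a helicase of both subunit pathways (chr1:121553835-121567989, minus strand), had 153, 248, 174, 183 and 147 CPM in Lmo2tg DN2/3, against 104, 104, 122 and 116 CPM in wild type DN2/3 (log2 fold 0.70, SE 0.15, adjusted p = 0.000686). Bop1, which forms a large subunit assembly complex with Pes1 and Wdr12 (chr15:76452989-76477277, minus strand), had 165, 247, 194, 234 and 167 CPM in Lmo2tg DN2/3, against 150, 107, 131 and 138 CPM in wild type DN2/3 (log2 fold 0.61, SE 0.22, adjusted p = 0.0394). All Lmo2tg libraries lay above all wild type ones in both genes, and in no other member (13.2% of all genes). Pes1 and Wdr12 were not called. Bop1 lost its call without wild type DN2/3 replicate 2, 3 or 4 or Lmo2tg DN2/3 replicate 2, 3 or 4, which left 1 call, or with scaling by total counts only. Without Lmo2tg DN2/3 replicate 5 there were 5 calls. Shares of all genes called in these refits are not given here.

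Of the other named members at DN2/3, Ddx10 had 90.7, 115, 95.4, 93.7 and 68.9 CPM in Lmo2tg DN2/3, against 62.8, 77.3, 75.7 and 73.9 CPM in wild type DN2/3 (log2 fold 0.36, SE 0.14, adjusted p = 0.0630). Fbl had 217, 310, 215, 340 and 226 CPM in Lmo2tg beside 241, 187, 190 and 185 CPM in wild type (log2 fold 0.38, SE 0.23, adjusted p = 0.226). Both overlapped through a single library, replicate 5 of Lmo2tg in Ddx10 and replicate 1 of wild type in Fbl. Gar1 (0.27, SE 0.17), Ddx21 (0.25, SE 0.15) and Ubtf (0.12, SE 0.10) did not pass either.

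Ldb1-KO against Lmo2tg at DN2/3 gave 1 member lower, Bop1, and 0 higher (7.22% of all genes tested fell and 8.87% rose), with a median of -0.18. Bop1 had 119, 120, 123, 157 and 120 CPM in Ldb1-KO DN2/3, against 165, 247, 194, 234 and 167 CPM in Lmo2tg DN2/3 (log2 fold -0.66, SE 0.21, adjusted p = 0.0311). The groups were apart, in Bop1 alone of the 44 (5.14% of all genes), but the call was lost without Lmo2tg DN2/3 replicate 2 (adjusted p = 0.0818) or 4 (0.0786), or without Ldb1-KO DN2/3 replicate 1 (0.0660), 2 (0.0742), 3 (0.0618) or 5 (0.0678). The count was 2 without Lmo2tg DN2/3 replicate 1 and 4 without replicate 5, where shares of all genes are not given here. Ltv1, a small subunit assembly gene known from yeast, had 64.0, 76.1, 77.1, 66.0 and 70.4 CPM in Ldb1-KO and 80.4, 119, 85.4, 98.4 and 70.8 CPM in Lmo2tg (log2 fold -0.36, SE 0.13, adjusted p = 0.0635), with overlap at the lowest Lmo2tg library. Polr1c (-0.35, SE 0.17), Nop56 (-0.27, SE 0.17), a core box C/D gene, Ddx21 (-0.22, SE 0.15) and Nop10 (-0.22, SE 0.13) did not pass.

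Ldb1-KO against wild type at DN2/3 gave 0 of 44 called (9.56% of all genes tested, either direction), 2 at an unadjusted p under 0.05 and 0 by DESeq2. The median was -0.05. A fit of those 2 groups alone called 3, and the share of all genes called in it is not given here. Ddx18 was the highest at 0.33 (SE 0.15, adjusted p = 0.160), with all Ldb1-KO libraries (124 to 151 CPM) above the wild type ones (104 to 122 CPM; 11.3% of all genes), and Noc2l the lowest at -0.34 (SE 0.19, adjusted p = 0.266). In the other direction, Polr1a, the largest subunit of RNA polymerase I, had all Ldb1-KO libraries (92.1 to 116 CPM) below the wild type ones (119 to 134 CPM; 10% of all genes).

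Of 110 further ribosome biogenesis genes, 63 fell and 1 rose in Lmo2tg over wild type at DN4 (median -0.33, 23.5% of all genes fell). In Ldb1-KO over wild type at DN4, 59 of the 110 fell and 0 rose (median -0.32, 14.4% of all genes fell). In wild type, 70 of them rose and 2 fell at DN4 over DN2/3 (median 0.41, 21.1% and 24.8% of all genes). Between the same stages, 6 rose and 3 fell in Ldb1-KO, where 28.1% of all genes were called in either direction. In Lmo2tg 0 rose and 2 fell, where 15.4% of all genes were called. Ldb1-KO over Lmo2tg at DN4 called 0 higher and 1 lower (5.85% and 8.71% of all genes). The nuclear exosome, which trims rRNA precursors, had 9 of 13 genes lower and 0 higher in Lmo2tg over wild type at DN4, among them Exosc7 (-0.86, SE 0.14, adjusted p = 1.72e-05) and Exosc2 (-0.91, SE 0.15, adjusted p = 2.38e-05). The lists of other small and large subunit genes had 25 of 40 and 27 of 46 lower, with 1 and 0 higher. Aatf (-0.70) and Rcl1 (-0.69) had the smallest p in the small subunit list, and Sbds (-0.50) and Ddx27 (-0.73) in the large subunit list. Of 11 other RNA polymerase I genes 2 were lower, Cd3eap (-0.85) and Polr1e (-0.22), and of 10 snoRNA host genes 3, with Snhg7 at -0.96 and Snhg4 at -0.81. Both shares are near the 23.5% of all genes that fell in this comparison.

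**Figure D5:**
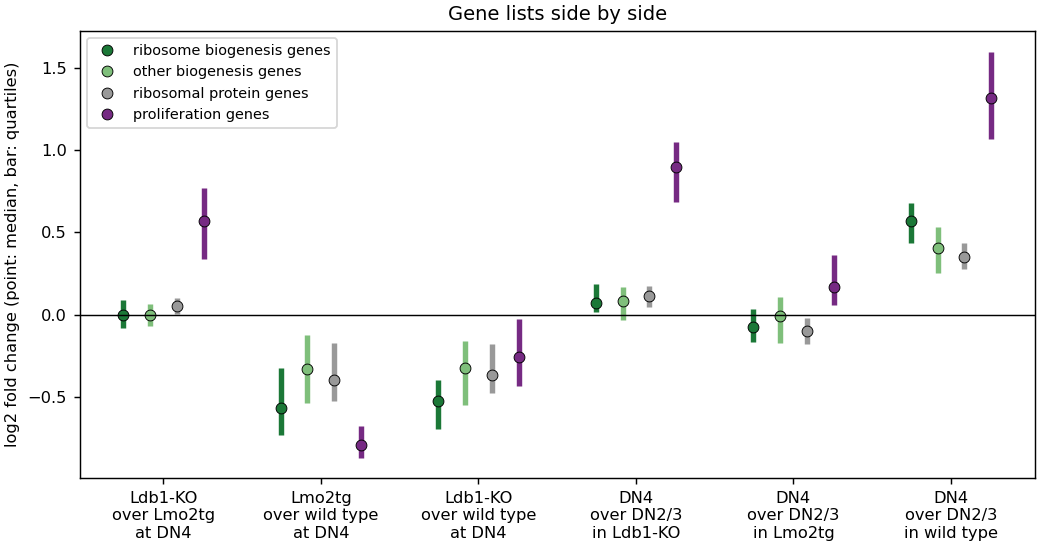
Log2 fold change of 4 gene lists (point: median over the list, bar: lower to upper quartile) in 6 comparisons, between genotypes at DN4 and DN4 over DN2/3 in each genotype. The 44 genes stand at -0.56 and -0.53 in the transgenic groups over wild type at DN4 and at 0.57 between stages in wild type, and the proliferation genes stand at -0.79 in Lmo2tg and -0.26 in Ldb1-KO over wild type at DN4.

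Ribosomal protein genes, 82 of 84 tested, had 51 lower and 3 higher in Lmo2tg over wild type at DN4 (median -0.39), 41 lower and 1 higher in Ldb1-KO over wild type (median -0.37), and 39 higher and 1 lower at DN4 over DN2/3 in wild type (median 0.35). The paralog Rpl3l was among the 3 that were higher in Lmo2tg. Of all genes tested, 23.5% fell in Lmo2tg and 14.4% in Ldb1-KO over wild type at DN4, and 21.1% rose between stages in wild type. The list of 16 proliferation genes had other counts in Ldb1-KO. In Lmo2tg over wild type at DN4, 13 fell (median -0.79), in Ldb1-KO over wild type at DN4 0 were called (median -0.26, 2 at an unadjusted p under 0.05), and in Ldb1-KO over Lmo2tg at DN4 6 rose (median 0.57). At DN4 over DN2/3, 12 of the 16 rose in Ldb1-KO (median 0.90), 3 in Lmo2tg (median 0.17) and all 16 in wild type (median 1.32). Whether these genes and the 44 members differ was not tested. Of all genes, 5.85% rose in Ldb1-KO over Lmo2tg at DN4. Between stages, 28.1% of all genes were called in either direction in Ldb1-KO and 15.4% in Lmo2tg.

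Myc had 219, 188, 225, 270 and 204 CPM in Ldb1-KO DN4, 136, 252, 151, 367 and 191 CPM in Lmo2tg DN4, and 427, 402, 512 and 467 CPM in wild type DN4. It fell by 1.03 (log2, SE 0.19, adjusted p = 0.000399) in Ldb1-KO and by 1.04 (SE 0.19, adjusted p = 8.40e-05) in Lmo2tg relative to wild type. The wild type libraries did not overlap with either, and replicates 2 and 4 were the highest of Lmo2tg. Between stages in wild type, where 38 members rose, Myc was at 0.31 (SE 0.20, adjusted p = 0.202). Mycn, its relative, was low, with means of 4.49 CPM in Ldb1-KO DN4, 7.03 CPM in Lmo2tg DN4 and 1.78 CPM in wild type DN4, and it fell by 3.45 (SE 0.24, adjusted p = 3.72e-10) in wild type at DN4 over DN2/3. Over wild type at DN4, Mycn rose by 1.33 (SE 0.22, adjusted p = 0.000144) in Ldb1-KO and by 1.98 (SE 0.22, adjusted p = 2.07e-07) in Lmo2tg.

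Markers of other cells were summed in each library. Double-positive and later thymocyte markers (4 genes) summed to 456 to 1784 CPM in Ldb1-KO DN4, 379 to 1736 CPM in Lmo2tg DN4 and 227 to 367 CPM in wild type DN4. Of the 4, 3 were higher in Ldb1-KO and 2 in Lmo2tg than in wild type. Mature T cell markers (9 genes) summed to 801 to 1328 CPM in Ldb1-KO DN4, 776 to 2753 CPM in Lmo2tg DN4 and 337 to 576 CPM in wild type DN4, with 7 of 9 higher in Ldb1-KO and 9 of 9 in Lmo2tg. B cell markers (8 genes) summed to 23.3 to 56.8 CPM in Ldb1-KO DN4, 29.5 to 113 CPM in Lmo2tg DN4 and 24.8 to 45.7 CPM in wild type DN4. Erythroid markers summed to 4.56 to 28.4 CPM in Ldb1-KO DN4 and 4.04 to 19.4 CPM in Lmo2tg DN4, and were at most 1.245 CPM in wild type DN4, with Hbb-bs and Hbb-bt at 0 counts in all 6 groups. Myeloid markers summed to 2.09 to 3.29 CPM in Ldb1-KO DN4, 2.01 to 10.3 CPM in Lmo2tg DN4 and 0.824 to 1.02 CPM in wild type DN4, so both transgenic groups lay above wild type. Dendritic markers summed to 13.3 to 32.8 CPM in Ldb1-KO DN4, 10.6 to 147 CPM in Lmo2tg DN4, highest in replicate 1, and 7.95 to 20.6 CPM in wild type DN4. NK and innate lymphoid markers summed to 183 to 366 CPM in Ldb1-KO DN4, 245 to 479 CPM in Lmo2tg DN4 and 367 to 515 CPM in wild type DN4, with Ldb1-KO below wild type throughout. Thymic stroma markers summed to 14.9 to 20.7 CPM in Ldb1-KO DN4, 7.04 to 14.3 CPM in Lmo2tg DN4 and 11.6 to 16.0 CPM in wild type DN4. DN thymocyte markers (8 genes) summed to 3735 to 4161 CPM in Ldb1-KO DN4, 2664 to 3433 CPM in Lmo2tg DN4 and 3873 to 4442 CPM in wild type DN4. Their part in the results was not tested. Without the libraries highest in double-positive markers, Lmo2tg DN4 replicate 1 and Ldb1-KO DN4 replicate 2, 25 members fell in Lmo2tg and 35 in Ldb1-KO over wild type at DN4. The share of all genes that fell in that fit is not given here. 

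Reads of members can be shared with other genes, and 8 members reached a cutoff of 10% shared stretches or 5% exon overlap. Nop56, Fbl, Tbl3, Noc2l, Ddx18 and Npm1 have 10% or more of their 101-base exon stretches in another annotated gene (34.4% in Ddx18). Nop14, Bysl, Tbl3 and Noc2l overlap a gene on the opposite strand by 5% or more of their exons, and Nop56 overlaps snoRNA and other genes by as much. Their values are uncertain to that extent, since no source used here states the strand setting. The other 36 members lie under both cutoffs, and some share less, such as Pes1 with 4.70% of its stretches. Of these 36, 24 fell in Lmo2tg and 30 in Ldb1-KO over wild type at DN4 (23.5% and 14.4% of all genes tested). At DN4 over DN2/3 in wild type, 31 of the 36 rose (21.1% of all genes).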

How the data were processed

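The authors deposited a table of raw, whole-number counts by gene symbol. Per the submitters' processing notes, reads were aligned to mm10 with STAR 2.5.2a and counted with featureCounts 1.4.6-p3; per the labels, libraries came from a TruSeq V2 kit with paired-end reads. No source used here gives the annotation, the strand setting or the handling of multi-mapped reads. The members and gene lists were chosen with earlier results of these data known. Counts were fitted in edgeR 4.0.16 (R 4.3.3): 28 libraries in 6 groups, TMM scaling, filterByExpr by group (14371 genes), robust quasi-likelihood F-test, two-sided, Benjamini-Hochberg adjustment over all genes. SE is the fold divided by the root of F. Named members had the smallest p in each of the 6 roles in Lmo2tg over wild type and Ldb1-KO over Lmo2tg at each stage, or the largest fold between stages; Nolc1, Bysl, Noc3l, Noc2l, Polr1a and the E-box genes were named as extremes or for their promoters after their values were seen. Exon lengths and shared stretches came from GENCODE M21 (mm10), promoters from RefSeq. Same-numbered libraries of a genotype deviated together (correlation over all genes 0.153 to 0.332 in wild type, 0.513 to 0.650 in Lmo2tg, 0.289 to 0.531 in Ldb1-KO), so the stage contrasts were also fitted with the pair as a block. DESeq2 1.42.0 was an alternative. The labels give 5 Ldb1-KO replicates a stage, the series text 4; the labels were followed. The model was also run on counts simulated from it, with the same spread per gene in every library and no pairs. That run cannot speak to the wider spread of the Lmo2tg libraries or to libraries that deviate together.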

Additional observations from a re-analysis of the deposited data

Results flagged for a closer look

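In 11 of the 20 named members the Lmo2tg effect differed between DN4 and DN2/3 by the interaction test of edgeR (adjusted p under 0.05). The difference, DN4 minus DN2/3 on the log2 scale, was -0.94 in Gar1, -0.93 in Fbl, -0.92 in Bop1, -0.82 in Tcof1, -0.69 in Nop56, -0.65 in Ltv1, -0.65 in Nop10, -0.63 in Dkc1, -0.58 in Rrp1b, -0.55 in Ubtf and -0.52 in Utp20. Of all genes tested, 11% were called lower by this test, and the named members were chosen partly for a small p in Lmo2tg over wild type, so their share is a description. The count over all 44 members, 22, was 9 without wild type DN2/3 replicate 2, wild type DN4 replicate 3 or Lmo2tg DN2/3 replicate 2. It was 6 in a fit of the compared groups alone. Shares of all genes in these refits are not given here.

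A single library stood apart from its group in 4 of 126 sets of values tested, where chance alone gives about 1 in 20. Bop1 had 157 CPM in Ldb1-KO DN2/3 replicate 4 and 119 to 123 CPM in the others, and Polr1c had 56.0 CPM in the same library and 37.2 to 40.1 CPM in the others. Dkc1 had 284 CPM in wild type DN4 replicate 1 against 318 to 324 CPM in the others, and Fbl 241 CPM in wild type DN2/3 replicate 1 against 185 to 190 CPM in the others.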

How the results depend on the processing

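Counts of members called kept within 1.5 times of the value given, over all settings tried, for Lmo2tg over wild type at DN4 (25 to 39 when single libraries were left out), Ldb1-KO over wild type at DN4 (24 to 35) and DN4 over DN2/3 in wild type (29 to 38). Leaving out single libraries gave 9 to 39 for the difference of the Lmo2tg effect, 1 to 5 for Lmo2tg over wild type at DN2/3, 0 to 4 for Ldb1-KO over Lmo2tg at DN2/3, 0 to 2 for the same at DN4, 0 to 7 between stages in Lmo2tg and 0 to 1 in Ldb1-KO. Scaling by total counts only gave 1 for Lmo2tg over wild type at DN2/3; it moved the median of all genes by -0.13 between stages in wild type and by 0.12 in the difference of the Lmo2tg effect. A fit of the compared groups only gave 3 for Ldb1-KO over wild type at DN2/3, 6 between stages in Ldb1-KO, 6 for the difference of the Lmo2tg effect and 30 for the stage change in Ldb1-KO minus wild type. At DN2/3, a replicate block by number across genotypes gave 6 for Lmo2tg over wild type, 4 for Ldb1-KO over Lmo2tg and 1 for Ldb1-KO over wild type. It gave 1 between stages in Ldb1-KO and 39 for the difference of the Lmo2tg effect. The libraries do not support this pairing between wild type and transgenic groups. Between Lmo2tg and Ldb1-KO, same-numbered libraries had correlations of 0.029 to 0.199 at DN2/3 and -0.075 to 0.338 at DN4. Means for other numbers were -0.030 and -0.036. Library names of these 2 genotypes run in order of replicate number, and the main fit has no such block. The block by genotype and number, chosen after seeing the data, gave 12 between stages in Lmo2tg, 8 in Ldb1-KO, 44 for the difference of the Lmo2tg effect, 2 for that of the Ldb1 effect and 38 for the stage change in Ldb1-KO minus wild type. Leaving out the 2 libraries highest in double-positive markers, also chosen after seeing the data, gave 9 for the difference of the Lmo2tg effect. Nop58 in Ldb1-KO over Lmo2tg at DN4 (0.12) turned to -0.0091 without Lmo2tg DN4 replicate 1 and to -0.044 without those 2 libraries, and was at most 0.27, without Lmo2tg DN4 replicate 2. The cause of these shifts was not tested. Except for the block by genotype and number, shares of all genes called in these refits are not given here. Each member had at least 1084 counts in every library; whether depth, spread or group size limited the calls was not tested.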
